A study of Mus musculus with 12 samples.

Results

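Ribosomal proteins of the cytosol form the protein part of the ribosome, which reads mRNA in its small subunit (40S) and joins amino acids in its large subunit (60S). Most of their genes are expressed in every cell at a high level, and many of their mRNAs start with a run of pyrimidines (a terminal oligopyrimidine or TOP motif) through which the mTOR kinase pathway controls their translation. Liver and growing skeletal muscle both make ribosomes in large amounts to supply protein synthesis. The genes were taken by their symbols alone: Rpl or Rps with a number and at most a short ending, Rplp0 to Rplp2, and Rpsa. On the Affymetrix mouse genome array, 77 symbols had this form, and 49 of them were covered by at least 1 set of probes assigned to that gene only, 26 of the large and 23 of the small subunit. These 49 genes are described here, out of 18194 genes so covered on the array. The other 28 shared all their probe sets with further symbols and are not named. Where a gene had several probe sets (24 genes), the one with the highest mean of the 6 samples of the tissue was used.

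Liver and quadriceps muscle were taken from C57BL/6 offspring at 4 weeks of age. The dams of the NP+tau group had received 1% taurine in the drinking water, from day 1 of pregnancy until birth, with a normal protein diet (20% casein). The dams of the NP group had received this diet with plain water. Each group had 3 samples in each tissue. According to the methods, each pup had its own dam and gave both tissues. The values are log2 RMA values, normalised by the authors for each tissue on its own, so that levels were tested within a tissue only. Differences are NP+tau minus NP on this log2 scale with the standard error (SE) of limma, and a gene was called at an adjusted p under 0.05.

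The livers and muscles carried their own marker genes, with means of 13.1 to 13.5 for liver markers in liver and 13.8 to 14.0 for muscle markers in muscle. Markers of other cells differed between samples. In liver, the mean of 14 neutrophil markers was 4.99 to 5.54 in NP+tau and 5.93 to 8.17 in NP, with the highest value in NP replicate 1, and 12 of the 14 had a difference below 0. The mean of 18 markers of macrophages and Kupffer cells was 7.28 to 8.25 in NP+tau and 8.62 to 9.74 in NP, again with NP replicate 1 highest, and 18 of 18 had a difference below 0. Of 12 endothelial markers 10 were below 0 in liver, and of 12 lymphocyte markers 9 were above 0. Among the livers, the array of NP+tau replicate 1 was unlike the other 5: its median absolute deviation from the median of the arrays was 0.279, against 0.0634 to 0.111 in the others. It was also the highest liver for 12 of 15 skeletal muscle markers, with a mean of 5.19 against 4.47 to 4.58 in the others. Xist was low, at 5.07 to 5.96, in NP+tau replicates 2 and 3 of both tissues, and at 10.8 to 11.8 in every other sample. The methods describe groups of both sexes, whereas the 3 NP samples of each tissue were alike in Xist and in the Y-linked Eif2s3y. The latter gene read 8.55 and 8.57 in NP+tau replicates 2 and 3 of liver, and 9.37 and 9.24 in those of muscle. Every other sample read 3.48 to 3.78. By both genes, NP+tau replicates 2 and 3 were male and all other samples female. With no male NP sample, the effect of diet could not be separated from that of sex, except through NP+tau replicate 1 alone. Fewer cells of a type and less RNA per cell cannot be told apart in such tissue samples.

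To show the motif for which these mRNAs are known, the sequence around the annotated transcription start was read for the genes on which the results turn, from 10 bases before the start to 20 bases from it, with capitals for a run of at least 5 pyrimidines that begins with a C no more than 10 bases from the start. The sequences are from RefSeq (GRCm38.p6) and are given 5′ to 3′ on the strand of the gene.
Rps6: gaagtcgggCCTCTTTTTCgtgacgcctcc (chr4:86857348-86857377, minus strand)
Rps18: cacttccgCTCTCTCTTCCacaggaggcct (chr17:33955646-33955675, minus strand)
Rpl35: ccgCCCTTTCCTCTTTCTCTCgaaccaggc (chr2:39005112-39005141, minus strand)
Rps9: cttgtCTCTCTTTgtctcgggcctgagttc (chr7:3704031-3704060, plus strand)
Rpl22l1: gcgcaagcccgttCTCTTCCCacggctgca (chr3:28805498-28805527, plus strand)
Rpl3l: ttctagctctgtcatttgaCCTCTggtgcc (chr17:24727816-24727845, plus strand)
Rps4x: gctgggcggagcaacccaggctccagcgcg (chrX:102189372-102189401, minus strand)
Rpl7l1: gctgcgcaagcgcagtagctgaagcaccgg (chr17:46782637-46782666, minus strand)
In Rps6, Rps18, Rpl35 and Rps9 the run covered the annotated start itself, in Rpl22l1 and Rpl3l it followed the start, and in Rps4x and Rpl7l1 there was no such run in this window. A promoter was given for 43 of the 49 genes. Counting the first listed start of each gene, a run of at least 5 pyrimidines led by a C exactly at the start was present in 8 of 43 genes (18.6%), against 2.49% of 27025 promoters of the table. A run of at least 7 led by a C within 10 bases of the start was present in 19 of 43 (44.2%), against 12.2% of all promoters. In the 300 bases from 250 before to 50 after the start, on either strand, the ETS core CCGGAAG was present in 21 of 43 (48.8% against 9.12%), the YY1 motif AAGATGGC in 3 (6.98% against 2.88%), the E-box CACGTG in 3 (6.98% against 7.24%) and the TATA motif TATAAA in 5 (11.6% against 14.2%). These matches describe the letters of 1 annotated start for each gene.

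Most of the genes were bright. A mean of 11 or more over the 6 samples was reached by 36 genes in liver and 37 in muscle. The other 13 in liver and 12 in muscle were read by dim probe sets, among them those of Rps6, Rps16, Rps25, Rps27, Rpl12, Rpl14, Rpl37 and Rpl39. Rpl39l and Rps16 in liver and Rps16 in muscle stayed below the limit for testing, so that 47 and 48 genes were tested.

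In liver, no ribosomal protein gene passed limma's test, with 0 of 47 called, where 0% of the 29274 probe sets of the array that were tested were called, and the smallest adjusted p among the genes was 0.718. At an unadjusted p under 0.05 there were 0 genes lower and 0 higher, against 3.99% and 0.7% of all probe sets. The differences nevertheless leaned one way: 42 of 49 were below 0, against 54.2% of all probe sets, and their median was -0.23 against -0.04. The 3 NP+tau livers lay below the 3 NP livers for 11 genes (9.11% of all probe sets) and above them for 0 genes (5.73%). Of the 26 genes of the large subunit, 21 were below 0 with a median of -0.19, and of the 23 of the small subunit 21 with a median of -0.32. Without NP replicate 1 the large subunit turned to a median of 0.02, with 12 of 26 below 0, and the small subunit had a median of -0.07, with 19 of 23 below 0; whether the subunits differ was not tested. Among the 36 bright genes 35 were below 0, with Rps27l as the exception.

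This lean rested largely on 1 liver. The gene's highest value was in NP replicate 1 for 41 of the 49 genes, against 25.3% of all probe sets. Taken as the median deviation of the genes from their own means, the livers stood at -0.14, -0.15 and -0.07 in NP+tau and at 0.48, -0.03 and -0.09 in NP. Without NP replicate 1, the median difference was -0.04, equal to that of all probe sets (-0.04). Then 31 of 49 genes were below 0, against 16136 of all 29274 probe sets. The NP livers were accordingly wide, with a median SD of 0.15 in NP+tau and 0.32 in NP, whereas over all probe sets the NP+tau livers were the wider (0.33 in NP+tau and 0.18 in NP). The same liver was the one with the highest neutrophil and macrophage markers. Of 11 markers of fibroblasts and stellate cells, 9 were likewise below 0 (median -0.92), and their mean level was 7.46, 7.12 and 7.44 in NP+tau and 8.40, 7.93 and 7.77 in NP. The 18S rRNA control probe set of the 3' part was at 11.06, 9.72 and 9.85 in NP+tau and 9.25, 9.89 and 9.37 in NP, so that NP+tau replicate 1 was the highest and NP replicate 1 the lowest liver. The part of these markers and of the 18S signal in the result was not tested.

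**Figure D1:**
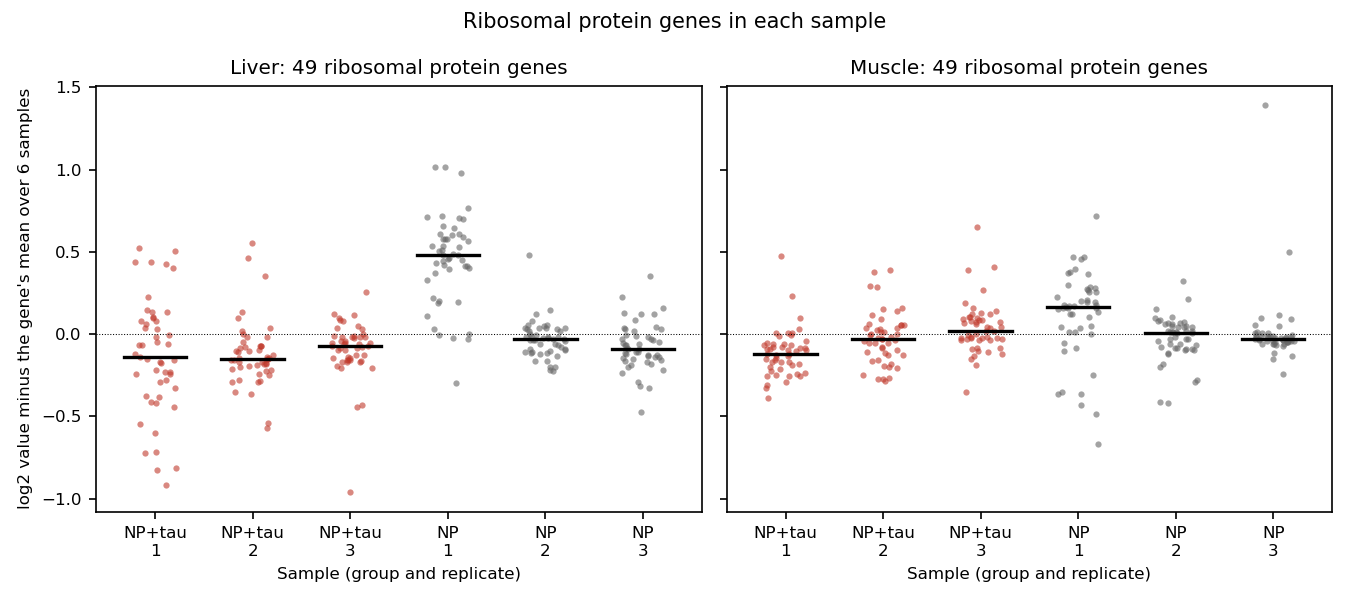
Each point is 1 of the 49 ribosomal protein genes in 1 sample, as its log2 value minus its mean over the 6 samples of the tissue (vertical axis), for NP+tau (red) and NP (grey) replicates 1 to 3; lines are medians. In liver, NP replicate 1 stands at a median of 0.48 and the other 5 livers between -0.15 and -0.03; in muscle, NP replicate 1 is at 0.16 and NP+tau replicate 1 at -0.12.

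Among the small subunit genes in liver, Rps9, whose protein sits where mRNA enters the 40S subunit, had values of 11.22, 12.03 and 12.17 in NP+tau and 12.85, 12.28 and 12.26 in NP. All NP+tau livers lay below all NP livers, with replicate 1 the lowest of its group and NP replicate 1 the highest of its own. The difference was -0.66 (SE 0.31, adjusted p = 0.718). It was -0.47 without NP replicate 1 and -0.37 without NP+tau replicate 1. The other probe sets of Rps9 gave -0.51 (SE 0.25) and -0.26 (SE 0.23). Rps18, of the head of the 40S subunit, stood at 12.25, 12.52 and 12.62 in NP+tau and 13.24, 12.66 and 12.69 in NP, a difference of -0.40 (SE 0.22), or -0.21 without NP replicate 1. Again the groups did not overlap, with a gap between NP+tau replicate 3 and NP replicate 2 that was small beside the distance of NP replicate 1 from both. Rps7 was at 12.52, 12.54 and 12.60 in NP+tau and 12.79 and 12.71 in NP replicates 2 and 3, with 13.27 in NP replicate 1 (difference -0.37, SE 0.20, or -0.20 without this liver). Rps3a1 (-0.40, SE 0.23), Rps14 (-0.34, SE 0.21) and Rps4x (-0.32, SE 0.20) had the same arrangement without overlap, and gave -0.20, -0.18 and -0.16 without NP replicate 1. Rps4x, the X-linked member of the small subunit, had 12.64, 12.71 and 12.77 in NP+tau and 13.35, 12.89 and 12.84 in NP, while its other, dim probe set gave 0.45 (SE 0.30), the other direction. Rpsa, a small subunit protein also known as a laminin receptor, was a case of a single liver: its values were 11.90, 11.75 and 11.83 in NP+tau and 13.06, 11.88 and 11.82 in NP. Its difference of -0.43 (SE 0.34) became -0.02 without NP replicate 1. Rps4l, a relative of Rps4x, had the lowest difference of all, -0.82 (SE 0.44), but its groups overlapped, with 7.65, 8.84 and 7.42 in NP+tau and 9.36, 8.27 and 8.73 in NP.

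Of the large subunit genes in liver, Rpl37 was at 7.79, 8.57 and 8.72 in NP+tau and at 9.05, 8.74 and 8.84 in NP (difference -0.52, SE 0.27). The groups did not overlap, but NP+tau replicate 1 was far below the other livers, and without it the difference was -0.23. Rpl7 had 11.91, 12.06 and 12.10 in NP+tau and 12.60, 12.22 and 12.22 in NP, a difference of -0.32 (SE 0.18), with -0.20 left without NP replicate 1. Rpl4 (-0.34, SE 0.20), Rpl13a (-0.33, SE 0.21) and Rpl11 (-0.36, SE 0.21) likewise showed no overlap. Without NP replicate 1 they gave -0.23, -0.13 and -0.21 in this order. The Rpl11 protein can, with the 5S rRNA, bind the p53 regulator Mdm2. The stalk proteins Rplp0 and Rplp2, which recruit elongation factors to the 60S subunit, overlapped: Rplp0 was at 12.49, 12.72 and 12.65 in NP+tau and 13.53, 12.80 and 12.71 in NP, a difference of -0.40 (SE 0.25), and Rplp2 differed by -0.32 (SE 0.24). Leaving out NP replicate 1 gave -0.14 for Rplp0 and -0.07 for Rplp2. The tested genes above 0 in liver were Rpl3l, Rps27l, Rpl27a, Rpl39 and Rpl7l1. Rps27l, a paralog of Rps27 known as a p53 target, was the only bright one among them, at 11.88, 11.88 and 11.77 in NP+tau and 11.78, 11.74 and 11.66 in NP (difference 0.12, SE 0.15). One NP+tau liver overlapped the NP livers there, and the 3 probe sets of the gene gave 0.01 to 0.12.

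**Figure D2:**
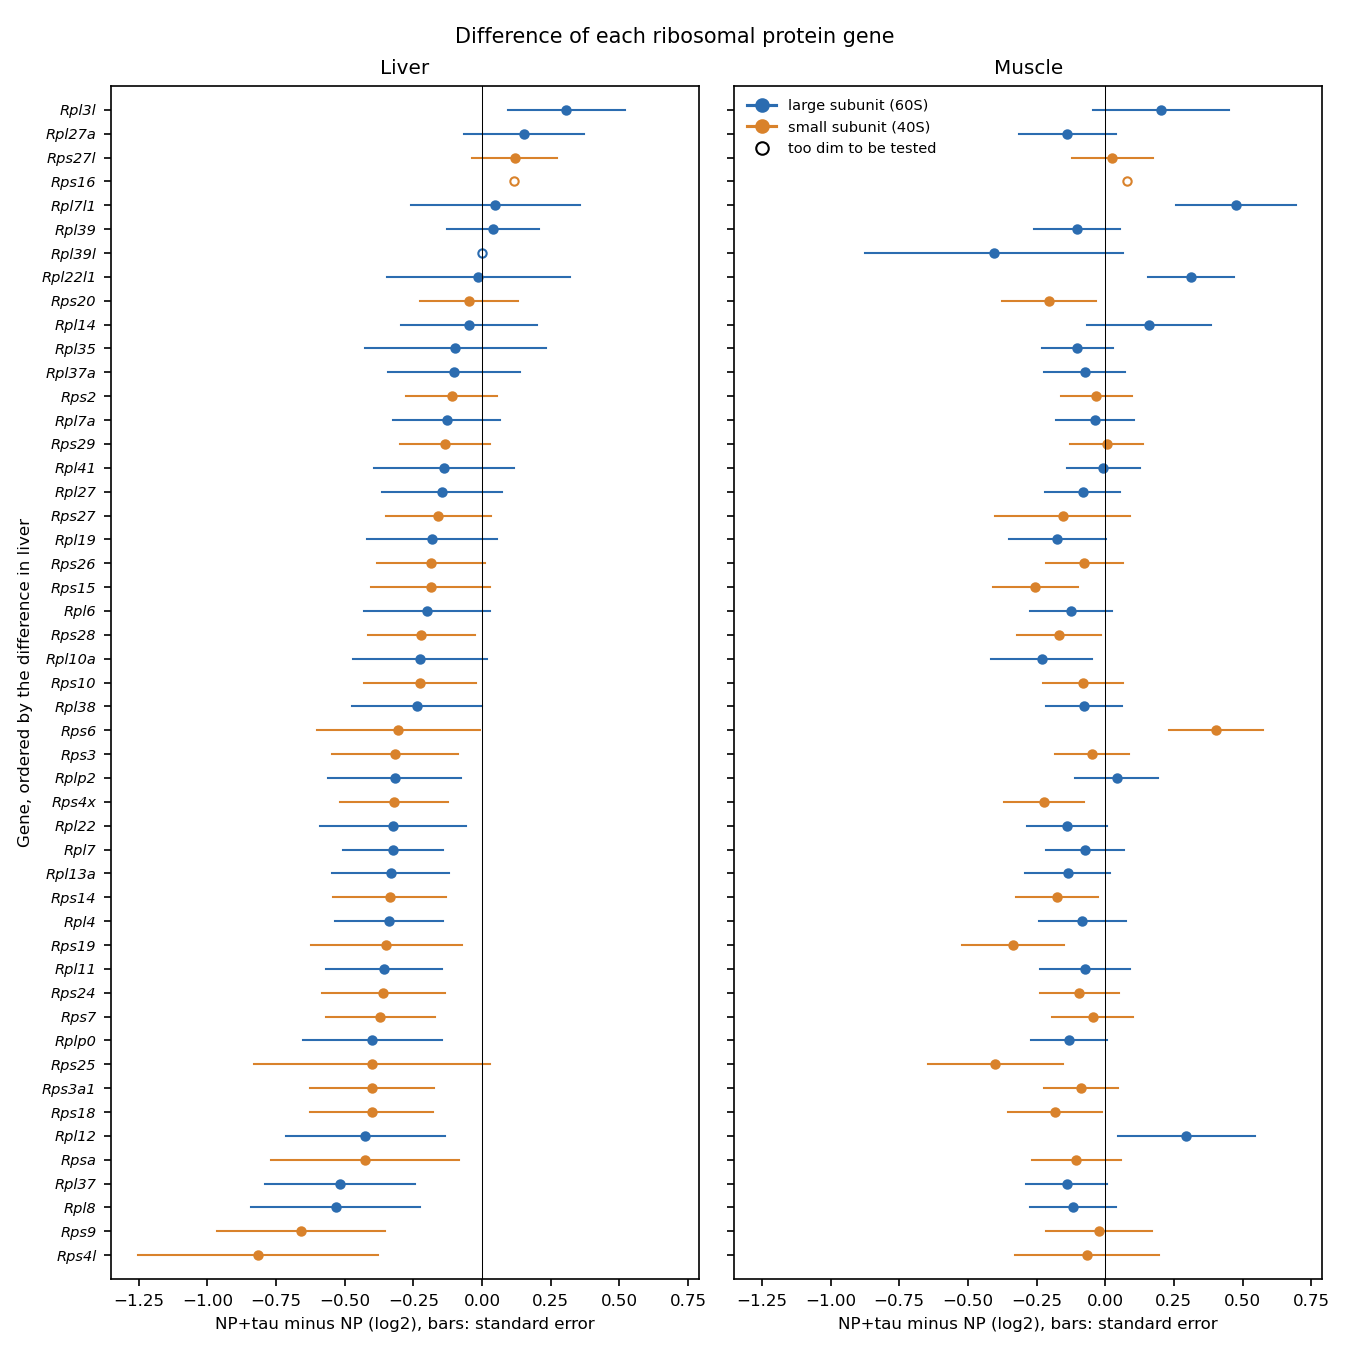
NP+tau minus NP (log2, horizontal axes) of each of the 49 genes in liver (left) and muscle (right), ordered by the liver value, with the standard error from limma as a bar; blue is the large and orange the small subunit, and open points were too dim to be tested. In liver 42 of 49 points lie below 0, down to -0.82, and in muscle 39 of 49, with Rpl7l1, Rps6 and Rpl22l1 at 0.31 to 0.48 on the other side.

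In muscle, again no gene passed the test (0 of 48 called, 0% of all probe sets, smallest adjusted p 0.707), and 0 genes were at an unadjusted p under 0.05 as lower and 0 as higher, against 2.4% and 3.72% of all probe sets. Of the 49 differences 39 were below 0 (48.2% of all probe sets), but they were small, with a median of -0.08 against 0.01. The groups did not overlap for 3 genes that were lower (7.77% of all probe sets), namely Rps15, Rps4x and Rpl35, and for 3 that were higher (7.33%), namely Rps6, Rpl7l1 and Rpl22l1. These shares are close to those of the array as a whole. The large subunit had 20 of 26 genes and the small subunit 19 of 23 below 0, each with a median close to that of all 49 (-0.08 and -0.09). NP replicate 1 held the highest value for 31 of the 49 genes, against 21.3% of all probe sets. Without it the median was -0.03, against 0.01 for all probe sets. Then 32 of the 49 genes were below 0, against 14215 of all 29274 probe sets. For 31 genes the sample named NP replicate 1 was the highest in both tissues, but the labels do not say that a replicate number marks 1 animal across tissues. The 18S rRNA control probe set of the 3' part was at 8.61 to 8.65 in NP+tau muscle and 8.83 to 9.61 in NP muscle. NP replicate 1 was the highest muscle for 0 of 14 neutrophil markers, of which 13 were highest in NP replicate 3. It was highest for 4 of 18 markers of macrophages and Kupffer cells. The part of the 18S signal and of these markers in the muscle result was not tested.

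Rps15, a 40S protein needed for export of this subunit from the nucleus, had 12.44, 12.36 and 12.43 in NP+tau muscle and 12.90, 12.60 and 12.49 in NP muscle. The difference was -0.25 (SE 0.16), or -0.13 without NP replicate 1, and its other probe set gave -0.28 (SE 0.16). Rps19, a protein of 40S maturation whose human gene is mutated in Diamond-Blackfan anaemia, was at 11.38, 11.35 and 11.67 in NP+tau and 12.11, 11.68 and 11.62 in NP (difference -0.34, SE 0.18), so that 1 NP+tau muscle lay between the NP muscles. Without NP replicate 1 it was -0.18. Rps4x was lower without overlap in both tissues, at 12.91, 12.96 and 13.07 in NP+tau muscle and 13.38, 13.16 and 13.07 in NP muscle. There the difference was -0.22 (SE 0.14), or -0.14 without NP replicate 1, and NP+tau replicate 3 and NP replicate 3 were nearly equal. The other, dim probe set of Rps4x gave 0.06 (SE 0.17). Rps4x is X-linked, and by Xist and Eif2s3y only NP+tau replicates 2 and 3 were male, in both tissues. Diet and sex cannot be told apart for it, except through NP+tau replicate 1. According to the methods both tissues came from the same pups, so they are not independent. Rpl35 reached its order of groups with a difference of only -0.10 (SE 0.13). The next genes below 0, in order of p, were Rps25, known for its role at viral internal ribosome entry sites (-0.40, SE 0.25), Rpl10a (-0.23, SE 0.18) and Rps20 (-0.21, SE 0.17), all with overlapping groups.

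The genes above 0 without overlap were Rps6, read by a dim probe set, and the paralogs Rpl7l1 and Rpl22l1. Rps6, the 40S protein phosphorylated by S6 kinase, was at 6.96, 6.98 and 7.25 in NP+tau muscle and 6.50, 6.57 and 6.91 in NP muscle (difference 0.40, SE 0.17, adjusted p = 0.707). Its other probe set, too dim to be tested, had 3.78, 3.66 and 3.63 in NP+tau and 3.97, 4.06 and 3.90 in NP, the other direction. Both probe sets of Rps6 were dim in both tissues, and in liver the brighter gave -0.30 (SE 0.30). Rpl7l1, a relative of Rpl7 found in precursors of the 60S subunit, was at 8.45, 8.60 and 8.31 in NP+tau muscle and 7.54, 8.12 and 8.27 in NP muscle (difference 0.48, SE 0.22, or 0.26 without NP replicate 1). NP replicate 1 was lowest, while NP replicate 3 lay just under the lowest NP+tau value. Its other probe sets gave 0.62 (SE 0.30), with overlapping groups, and 0.19 (SE 0.13). Rpl22l1, the paralog of Rpl22, had 11.68, 12.05 and 11.75 in NP+tau muscle and 11.42, 11.47 and 11.65 in NP muscle (difference 0.31, SE 0.16, or 0.20 without NP+tau replicate 2). Rpl22 itself differed by -0.14 (SE 0.15) in the same muscles and Rpl7 by -0.07 (SE 0.14).

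**Figure D3:**
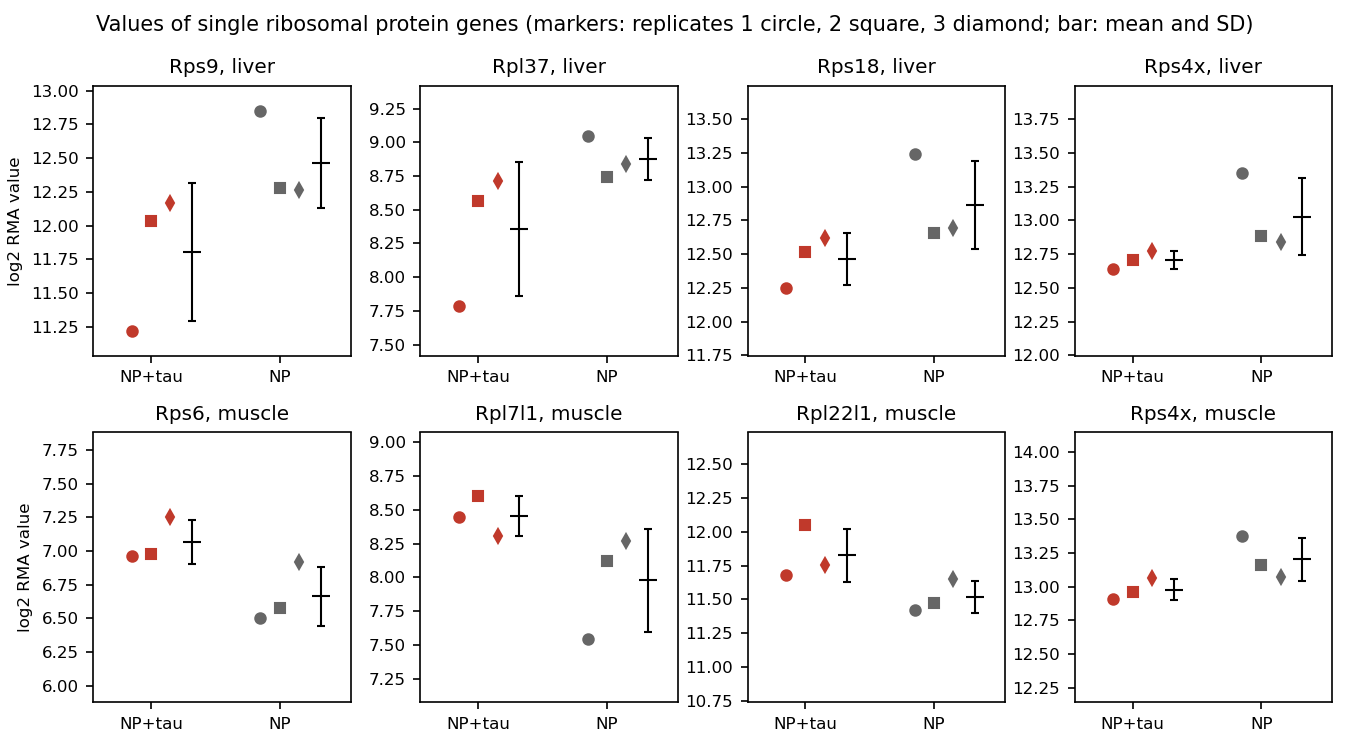
Log2 RMA values (vertical axes, each spanning 2 units) of Rps9, Rpl37, Rps18 and Rps4x in liver and of Rps6, Rpl7l1, Rpl22l1 and Rps4x in muscle, for NP+tau (red) and NP (grey) replicates 1 (circle), 2 (square) and 3 (diamond), with mean and SD of 3 samples in black. In all 8 panels the groups do not overlap, and in the liver panels NP replicate 1 is the highest sample. Of the 49 genes, the groups did not overlap for 11 in liver and for 3 lower and 3 higher in muscle.

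Some paralogs can replace a usual ribosomal protein in certain tissues. Values of the partners are given where the partner was among the 49 genes. Rpl3l, the form of Rpl3 known from heart and skeletal muscle, was bright in muscle, at 12.32, 11.60 and 11.92 in NP+tau and 11.36, 11.91 and 11.96 in NP, and near the detection limit in liver, at 4.64, 4.12 and 4.06 in NP+tau and 3.82, 4.01 and 4.07 in NP. The tissues were normalised apart, so these levels stand side by side without a test. The differences were 0.20 (SE 0.25) in muscle and 0.31 (SE 0.21) in liver, with overlapping groups in both. In liver Rpl3l reached the limit for testing, 4.60, only through NP+tau replicate 1, so that its liver value has no weight as a difference. Rpl39l, known from testis, was dim in every sample, at 4.37, 4.4 and 4.66 in NP+tau muscle and 4.31, 4.26 and 6.07 in NP muscle. Its difference was -0.40 (SE 0.47), or 0.19 without NP replicate 3, and its partner Rpl39 gave -0.10 (SE 0.16). Rps27l differed by 0.03 (SE 0.15) in muscle and Rps27, on a dim probe set, by -0.16 (SE 0.25). In liver Rps27 gave -0.16 (SE 0.19). Rpl22l1 in liver differed by -0.01 (SE 0.33), with values of 11.88, 10.90 and 11.52 in NP+tau and 11.98, 11.24 and 11.13 in NP, and Rpl22 in liver by -0.32 (SE 0.27), or -0.05 without NP replicate 1.

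Both tissues gave a difference below 0 for 36 genes and above 0 for 4, while 6 genes were below 0 in liver and above in muscle and 3 the reverse. Taken as muscle minus liver in 1 fit of the 12 samples, the effect of NP+tau was above 0 for 39 of the 47 genes tested. The share of all probe sets above 0 was not counted. On the liver side the values leaned on NP replicate 1. Without it the liver median was -0.04 instead of -0.23, beside -0.08 in muscle, or -0.03 without muscle NP replicate 1. No gene passed (0 called, 0% of 25622 probe sets), and 0 were at an unadjusted p under 0.05, against 7.8% of all probe sets. The genes with the smallest p were Rps6 (0.71, SE 0.36), Rpl12 (0.72, SE 0.40), Rps9 (0.64, SE 0.38) and Rps4l (0.75, SE 0.55), with adjusted p of 0.542 for the first 3 and 0.555 for Rps4l. Rpl12, a protein at the base of the stalk, was dim throughout, at 5.80, 5.62 and 6.47 in NP+tau muscle, 5.46, 5.63 and 5.90 in NP muscle, 5.28, 6.18 and 5.38 in NP+tau liver and 6.04, 6.31 and 5.76 in NP liver.

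**Figure D4:**
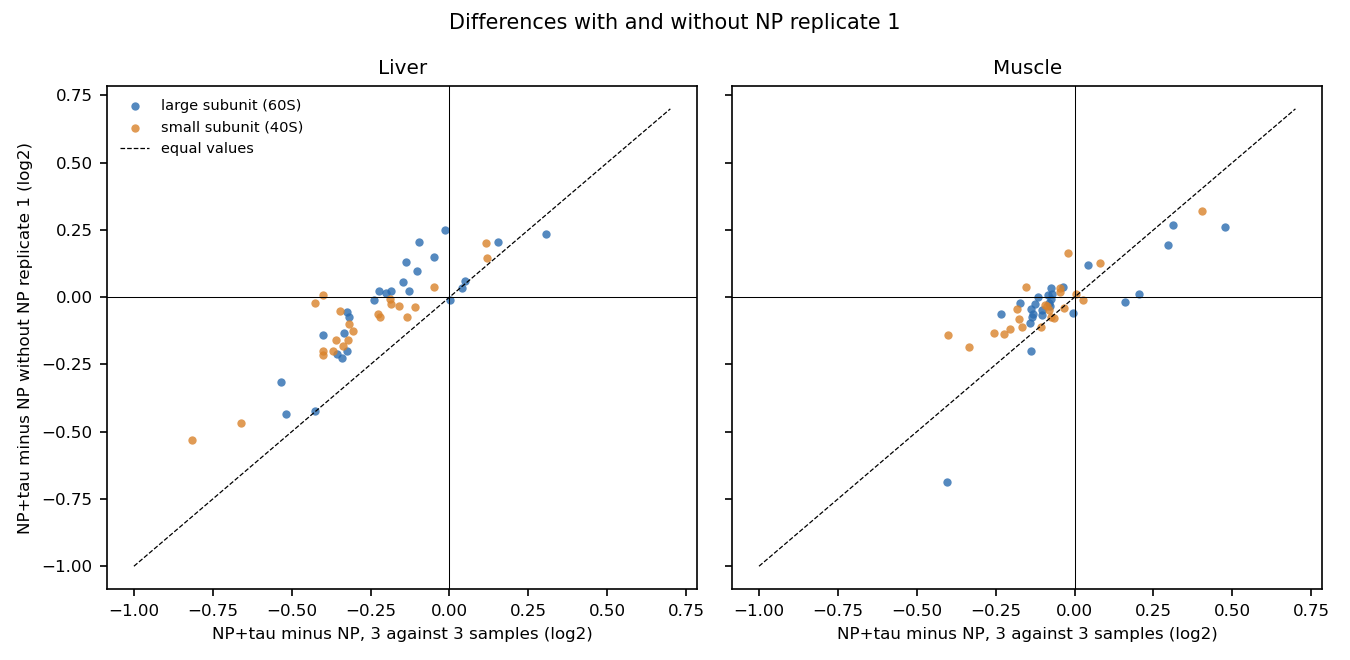
NP+tau minus NP (log2) of each of the 49 genes over 3 against 3 samples (horizontal axes) and without NP replicate 1 (vertical axes), in liver (left) and muscle (right), with the large subunit in blue, the small in orange and the line of equal values dashed. In liver most points lie above the line, with a median of -0.23 before and -0.04 after; in muscle the medians are -0.08 and -0.03.

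Probe sets shared with further symbols leaned the same way. They were read on the same arrays and are not an independent check. The 110 probe sets that the array shares between a ribosomal protein symbol and further symbols had 94 differences below 0 in liver, with a median of -0.19 and 81 highest in NP replicate 1. In muscle 89 of the 110 were below 0, with a median of -0.11 and 69 highest in NP replicate 1. Here too the lean in liver rested largely on NP replicate 1. Without this sample, 63 of the 110 were below 0 in liver, with a median of -0.03, against -0.04 for all probe sets. Without NP replicate 1 of muscle, 73 were below 0, with a median of -0.05, against 0.01 for all probe sets. Without overlap, 15 of the 110 were lower and 2 higher in muscle, against 7.77% and 7.33% of all probe sets. In liver 20 were lower and 1 higher, against 9.11% and 5.73%. At an unadjusted p of limma under 0.05, 1 was lower in muscle, against 2.4% of all probe sets. The 110 hold several probe sets of 1 gene. Single genes were less uniform: of the 24 genes with several probe sets, all sets of a gene had 1 direction for 17 in liver and 14 in muscle. Near-identical gene copies may share reads of a probe set, so the values of single genes are uncertain to that extent.

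Other genes of translation and ribosome production did not all run alongside. The mRNAs other than ribosomal protein mRNAs that carry a TOP motif had 21 of 22 differences below 0 in liver (median -0.34), and 0 of 22 passed the test in either direction. Of these, 3 were at an unadjusted p under 0.05, all lower (3.99% of all probe sets). Eif4b, an initiation factor that helps the eIF4A helicase, was at 9.32, 9.55 and 9.78 in NP+tau and 10.13, 10.10 and 10.14 in NP liver (difference -0.58, SE 0.18). Unlike most ribosomal protein genes, Eif4b was nearly level in the 3 NP livers. Most of the list was not: NP replicate 1 was the highest liver for 17 of the 22, beside 41 of the 49 ribosomal protein genes. Npm1, a nucleolar chaperone of ribosome assembly, differed by -0.90 (SE 0.30) and Gas5, a noncoding host transcript of small nucleolar RNAs, by -0.76 (SE 0.28). Without NP replicate 1 the list had 20 of 22 below 0 and a median of -0.21. In muscle, 12 of the 22 were above 0, with a median of 0.02, but without NP+tau replicate 2 this turned to 17 below 0 and a median of -0.15. Elongation and release factors had 11 of 15 below 0 in liver (median -0.17) and 9 of 15 above 0 in muscle (median 0.06), with 0 of 15 passing in either tissue. The liver value leaned on the array unlike the others: NP+tau replicate 1 was lowest for 11 of 15, and without it 8 were below 0 (median -0.055).

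The factors that assemble ribosomes in the nucleolus had medians of unlike sign in the tissues, each resting on 1 sample. In liver, 67 of 98 were below 0 (median -0.16), with 0 passing the test. NP+tau replicate 1 was the lowest liver for 70 of the 98, and without it the direction turned, with 67 above 0 and a median of 0.07. In muscle, 82 of 98 were above 0 (median 0.22, against -0.08 for the ribosomal proteins), again with 0 passing. There 13 were higher without overlap (7.33% of all probe sets) and 3 lower (7.77%), and the highest value was in NP+tau replicate 2 for 70 of 98. Without NP+tau replicate 2, 48 were above 0, with a median of -0.0079. At an unadjusted p under 0.05 there were 3 of 98 higher, no larger a share than the 3.72% of all probe sets, namely Ltv1, of late 40S maturation (0.50, SE 0.20), Mdn1, the AAA ATPase of 60S assembly (0.58, SE 0.22), and Dhx33, a nucleolar helicase (0.42, SE 0.17). Ltv1 was at 8.49, 8.98 and 8.40 in NP+tau and 8.01, 8.07 and 8.28 in NP muscle. Genes of RNA polymerase I and its factors, which transcribe rRNA, had 15 of 16 above 0 in muscle (median 0.22) and 9 of 16 below 0 in liver (median -0.02), with 0 passing in either tissue. Rrn3, the initiation factor that recruits RNA polymerase I, was at 7.57, 7.87 and 7.61 in NP+tau and 7.16, 7.27 and 7.23 in NP muscle (0.46, SE 0.14). The 3 NP+tau muscles lay above the 3 NP muscles. Of the 16, the highest value was in NP+tau replicate 2 for 10, and without it 11 were above 0 (median 0.10). In liver 10 were above 0 without NP+tau replicate 1 (median 0.05).

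**Figure D5:**
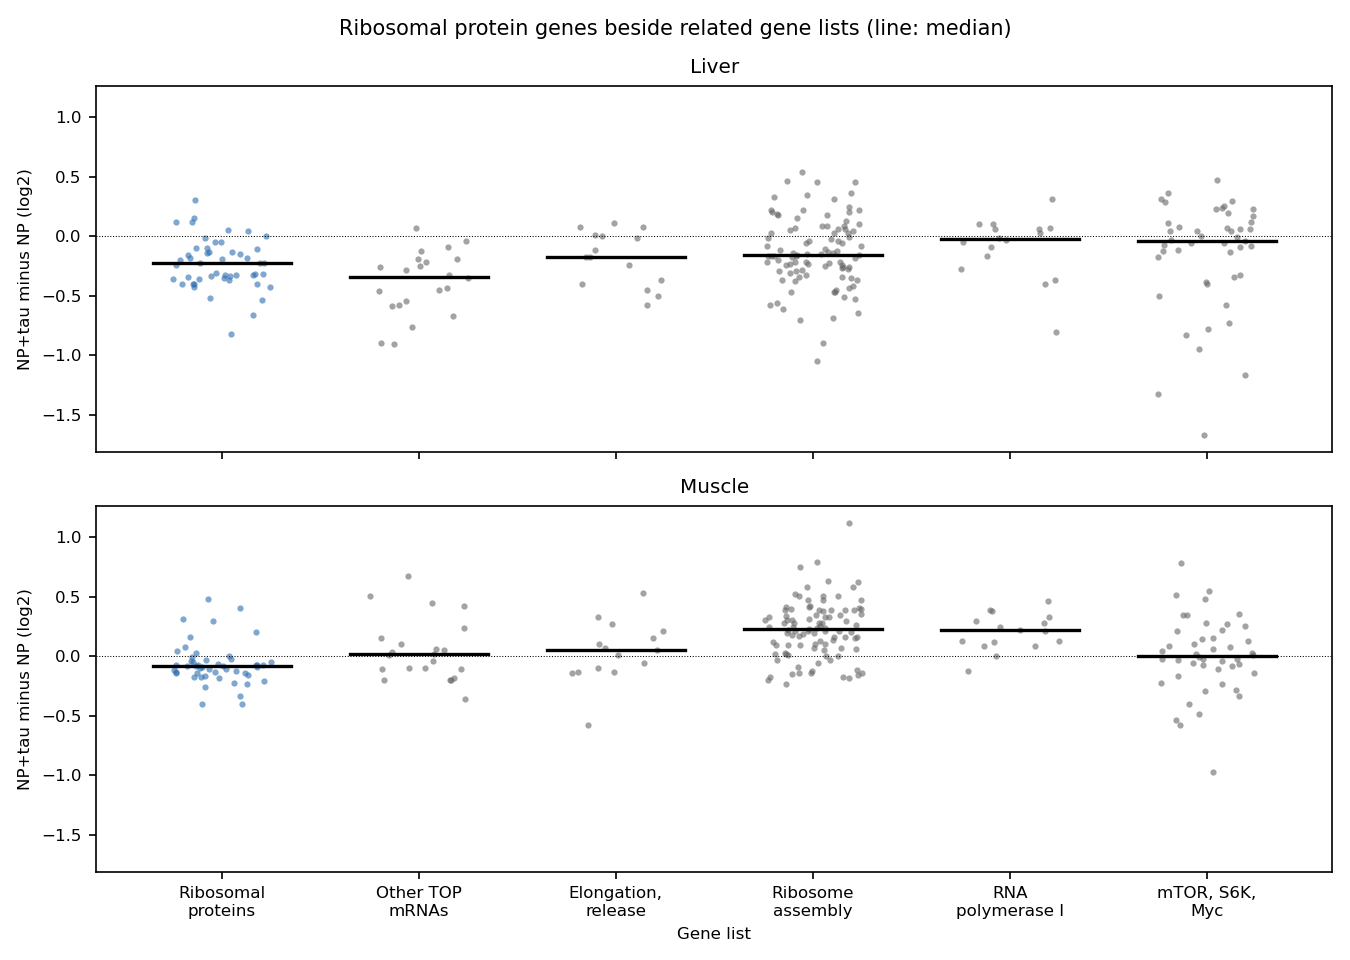
NP+tau minus NP (log2, vertical axes) of the genes of 6 lists in liver (above) and muscle (below), with 1 point for each gene and lines at the medians; the ribosomal proteins are blue. The medians of the ribosomal proteins are -0.23 in liver and -0.08 in muscle, and those of ribosome assembly are -0.16 and 0.22, which become 0.07 without liver NP+tau replicate 1 and -0.0079 without muscle NP+tau replicate 2.

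Among 46 regulators of mTOR, S6 kinase and Myc, 25 were below 0 in liver and 23 in muscle, and 0 passed the test in either tissue. In liver, 6 were lower at an unadjusted p under 0.05 and 0 higher (3.99% and 0.7% of all probe sets). The smallest p belonged to Rictor, a subunit of mTOR complex 2, at 5.62, 6.09 and 6.38 in NP+tau and 7.09, 7.23 and 6.62 in NP (-0.95, SE 0.27). Rragd, a Rag GTPase that signals amino acids to mTOR complex 1, was at 4.57, 4.69 and 4.72 in NP+tau and 7.48, 6.14 and 5.36 in NP (-1.67, SE 0.49). The 3 NP+tau livers were alike there, and the NP livers were spread, with NP replicate 1 highest. In muscle, 2 were higher and 2 lower at that p (3.72% and 2.4%). Larp1, the protein that binds TOP motifs, was at 9.67, 10.45 and 9.74 in NP+tau and 9.30, 9.54 and 9.38 in NP (0.55, SE 0.23), and Nprl2 of the GATOR1 complex differed by 0.35 (SE 0.14). Mxi1, an antagonist of Myc, was lower in muscle (-0.54, SE 0.18) as in liver (-1.16, SE 0.42), in both tissues without overlap but short of the adjusted threshold. Genes of ribosomal protein and ribosome surveillance had 12 of 15 below 0 in liver (median -0.26) and 13 of 15 above 0 in muscle (median 0.17), with 0 passing. Each median moved with 1 sample: it was -0.036 in liver without NP+tau replicate 1 and 0.056 in muscle without NP+tau replicate 2.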

How the data were processed

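RNA of liver and quadriceps muscle was hybridised to Affymetrix mouse genome arrays. The deposited log2 values were made by the authors with quantile normalisation and RMA (justRMA of Bioconductor 2.2 under R 2.7.0), for each tissue on its own. Their removal of absent probes was not repeated, and newborn samples were not analysed here. Of 45101 probe sets, 64 controls were removed, and a tissue kept the probe sets whose highest value reached the 35th percentile of such values (29274 in each tissue). Gene symbols were those of the series' platform annotation. NP+tau was compared with NP by limma 3.58.1 (lmFit and eBayes, R 4.3.3), with Benjamini-Hochberg adjustment over all probe sets kept, and the tissues by an interaction term over 25622 probe sets. The script was tested on simulated data.

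The genes, lists and tests were chosen with earlier results of these data known. Named were up to 6 higher (5 in liver) and 6 lower genes with the smallest p in each tissue, 4 of the interaction, paralogs with their partners, Rplp0, Rplp2, Rpsa, Rps6 and Rps4x, and, of each other list, up to 2 genes with the smallest p. Rpl4, Rpl11, Rpl13a, Rpl35 and Rps14, Rpl8 and further genes of the other lists were chosen after their values were seen. Alternatives were other filters, centring, probe set choices, array weights, an intensity trend, the Xist level as covariate, a block for the replicate number, and each sample left out; the other lists without NP+tau replicate 1 or 2 were added after seeing the data. Precision is limited by the 6 arrays per tissue. Promoter sequences were from RefSeq (GRCm38.p6).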

Additional observations from a re-analysis of the deposited data

How the results depend on the processing

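Under the alternatives tried, no ribosomal protein gene passed limma's test in liver, in muscle or between the tissues, with 1 exception. With the Xist level as a covariate, 4 of 47 genes were called in liver (Rpl37, Rps9 and Rpl8 lower, Rpl3l higher), beside 9449 of all 29274 probe sets (32.3%); Xist sets NP+tau replicates 2 and 3 apart, so that the comparison rests on NP+tau replicate 1, through which alone Rpl3l reached the limit for testing. In muscle this fit called 0 genes and gave a median of -0.16 instead of -0.08. Leaving out single samples gave medians of -0.36 to -0.04 in liver, where the value nearest 0 is that without NP replicate 1, and of -0.13 to -0.03 in muscle. Without both replicates 1 the liver median was -0.06. In a fit with a replicate block, 0 genes were called in liver (smallest adjusted p = 0.744), in muscle (0.721) and between the tissues (0.426). The block cannot move the medians of -0.23 and -0.08, since each group holds every replicate number. Deviations of NP+tau and NP samples of the same number correlated at 0.01, -0.12 and 0.11 in liver and -0.19, -0.25 and 0.33 in muscle. Deviations within a group of 3 sum to 0, so these correlations depend on each other. They do not settle whether the numbers pair samples.

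Of the 49 genes, 13 in liver and 11 in muscle changed sign without NP replicate 1. The following values are of the named genes only, whose turns of sign were all short of the threshold. With Xist these were Rpl7l1 (-0.62), Rpl22l1 (0.44) and Rps27 (0.022) in liver and Rplp2 (-0.14) and Rpl14 (-3.52e-05) in muscle. With array weights they were Rpl39 (-0.018) and Rps6 (0.054) in liver and Rps27l (-0.031) in muscle, and with the mean of all probe sets Rps4x (0.064) in liver and Rps27l (-0.0069) in muscle. Without both replicates 1 of liver they were Rpl39 (-0.027), Rpl22l1 (0.029) and Rps6 (0.16). Over the samples left out in turn, the differences in liver ran from -0.028 to 0.31 for Rpl27a, -0.022 to 0.13 for Rpl39, -0.22 to 0.36 for Rpl7l1 and -0.24 to 0.25 for Rpl22l1. In muscle they ran from -0.018 to 0.31 for Rpl14, -0.71 to 0.19 for Rpl39l, -0.047 to 0.11 for Rps27l, -0.34 to 0.040 for Rps27, -0.0087 to 0.13 for Rplp2 and -0.23 to 0.0019 for Rpsa. The causes were not tested.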
